A study of Homo sapiens with 6 samples.

Results

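Mucins are very large glycoproteins whose long stretches rich in serine, threonine and proline carry dense O-linked sugars. The genes described here are 9 members of the family, MUC1, MUC3A, MUC4, MUC5AC, MUC5B, MUC13, MUC15, MUC16 and MUC20, taken as the rows of a deposited gene count table whose Ensembl identifier maps to these symbols. All 9 were found among 60617 genes. They were measured by RNA sequencing in A549, an established human lung adenocarcinoma cell line, in cells with a YTHDF1 knockout (3 libraries) and in wild-type cells (3 libraries). No treatment is named for either group. YTHDF1 is a cytoplasmic protein that binds N6-methyladenosine in mRNA.

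MUC5AC and MUC5B are secreted, gel-forming mucins and make up most of the protein mesh of airway mucus. MUC1, MUC3A, MUC4, MUC13, MUC15, MUC16 and MUC20 are anchored in the plasma membrane, where their extracellular part shields the cell surface and their cytoplasmic tail can take part in signalling. MUC1 and MUC16 (the CA125 antigen) are also used as tumour markers.

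The sequences below come from RefSeq promoter windows on GRCh38.p14, which run from 250 bases before to 50 bases after a gene's start, and from the GENCODE 29 transcripts. Of the 9 genes, 5 had such a window: MUC1, MUC3A, MUC4, MUC13 and MUC16. The promoters of the 3 most abundant genes that rose in the knockout libraries are shown because these genes moved in the same direction. Capitals mark matches to any of 5 motifs, searched on both strands: TTC and GAA with any 3 bases between them (the GAS site), GAAA and GAAA with any 2 bases between them (the core of the interferon-stimulated response element), GGG and CC with any 5 bases between them (a loose NF-kB motif), GGGCGG (the GC box) and TATAAA (the TATA box). RefSeq gives MUC1 a second start 6 bases away, whose window is not shown. The MUC13 window lies inside the GENCODE span of the gene, downstream of its outermost start.
MUC13, chr3:124934702-124935001, minus strand: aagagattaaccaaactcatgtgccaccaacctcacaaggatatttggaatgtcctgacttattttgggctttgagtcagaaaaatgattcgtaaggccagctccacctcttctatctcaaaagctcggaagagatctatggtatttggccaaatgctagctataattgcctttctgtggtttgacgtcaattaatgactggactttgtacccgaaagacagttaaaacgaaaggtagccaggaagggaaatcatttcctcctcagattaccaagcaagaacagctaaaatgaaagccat
MUC1, chr1:155192860-155193159, minus strand: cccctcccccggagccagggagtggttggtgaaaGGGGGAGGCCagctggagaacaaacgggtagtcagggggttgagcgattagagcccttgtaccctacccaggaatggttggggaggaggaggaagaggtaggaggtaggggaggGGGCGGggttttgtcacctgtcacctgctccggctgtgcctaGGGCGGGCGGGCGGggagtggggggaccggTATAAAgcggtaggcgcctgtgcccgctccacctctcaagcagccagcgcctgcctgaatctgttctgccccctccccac
MUC3A, chr7:100949284-100949583, plus strand: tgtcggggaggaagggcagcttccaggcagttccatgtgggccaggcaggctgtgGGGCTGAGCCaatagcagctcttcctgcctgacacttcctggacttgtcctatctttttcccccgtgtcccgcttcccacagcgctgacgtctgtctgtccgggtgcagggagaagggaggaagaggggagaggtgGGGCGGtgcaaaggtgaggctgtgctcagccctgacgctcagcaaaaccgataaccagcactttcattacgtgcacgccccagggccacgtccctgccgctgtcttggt

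The 3 windows share little. The MUC1 window held 4 GC boxes, 3 of them overlapping each other, 1 TATA box starting 30 bases before the gene's start and 1 match to the NF-kB motif, and 65.7% of its bases were G or C. The MUC3A window held 1 GC box and 1 NF-kB motif match, with 61.7% G or C. The MUC13 window held none of the 5 motifs, and 41% of its bases were G or C. Neither the GAS site nor the response element core was found in any of the 3. Of all 35116 promoter windows in the table, 7.66% held the GAS site, 3.57% the response element core, 58.7% the NF-kB motif, 45.0% the GC box and 11.5% the TATA box. A match is a string of letters and not evidence of binding, and a window without one says nothing of factors that bind elsewhere.

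The repeats that give mucins their sugar-bearing stretches also limit how well short reads can be counted. The 60-base unit below occurred 19 times without a mismatch in the coding sequence of the longest coding MUC1 transcript, and it is shown because reads that fall inside it have several equal positions in the same gene.
MUC1 repeat unit: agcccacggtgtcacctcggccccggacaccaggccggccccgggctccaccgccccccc
In that transcript 42.4% of 50-base windows occurred more than once. The share was 29.2% for MUC5B, 28.3% for MUC4, 22.8% for MUC20, 21.4% for MUC5AC, 1.86% for MUC3A, 1.07% for MUC16 and 0% for MUC13 and MUC15. Between genes, 54.1% of the 50-base windows of MUC20 were also found in transcripts of other genes, chiefly the pseudogene MUC20P1 and the overlapping transcript gene MUC20-OT1, so the count of MUC20 is uncertain. The shares were 3.78% for MUC3A, 2.68% for MUC5B, 2.22% for MUC15 and 0.434% for MUC5AC, and 0% for MUC1, MUC4, MUC13 and MUC16. The sources used here do not give the strand setting of the counting or the handling of reads with several positions.

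The knockout libraries held 32037107, 40675628 and 40186533 counts and the wild-type libraries 38225388, 27238817 and 40460782 counts. Levels are given as CPM, counts per 1000000 after TMM scaling, with means ± SD over n = 3 libraries per group, and 3 counts in a library corresponded to 0.0735 to 0.111 CPM. YTHDF1 RNA averaged 48.1 ± 0.87 CPM in knockout libraries and 99.4 ± 3.89 CPM in wild-type libraries, and how the gene was disrupted, and in how many clones, is not given in the labels. Among markers of the line, KRT7 and KRT8 were abundant in all 6 libraries, while EPCAM was at 1.61 to 2.21 CPM in knockout libraries and 1.74 to 2.56 CPM in wild-type libraries. CDH1, the epithelial cadherin, rose by 1.76 on the log2 scale, and AKR1B10, an aldo-keto reductase abundant in A549, fell by 1.06. The summed level of 7 leukocyte markers was 8.11 to 8.41 CPM in knockout libraries and 14.2 to 15.2 CPM in wild-type libraries, nearly all of it CD14 and ITGAM, with CD3E at 0 counts. The sum over 5 endothelial markers was 0.49 to 0.526 CPM in knockout libraries and 0.87 to 1.27 CPM in wild-type libraries, that over 7 fibroblast markers was 44.4 to 47.6 CPM and 32.5 to 38.1 CPM, and that over 6 markers of ciliated cells was 12.3 to 14.2 CPM and 15.1 to 16.9 CPM, each in knockout and then in wild-type libraries. Most of the fibroblast sum was COL1A1, which rose, as did LUM, while COL3A1, PDGFRA and PDGFRB fell. PDGFRB passed the filter on low counts through the wild-type libraries alone, so any call of it was bound to be a fall. Mitochondrially encoded mRNAs took 3.72% to 3.98% of the counts in knockout libraries and 5.76% to 5.92% in wild-type libraries. These marker sums and this share run with the groups in every result below, and their part in those results was not tested.

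MUC13 and MUC1, the most abundant members in the knockout libraries, were higher there than in the wild-type libraries. MUC5B, near them in CPM in the wild-type libraries, was lower in the knockout libraries. Counting a gene as detected in a library at 3 or more counts, 6 of the 9 genes were detected in all 3 knockout libraries (MUC1, MUC3A, MUC5B, MUC13, MUC16 and MUC20) and 4 in all 3 wild-type libraries (MUC1, MUC3A, MUC5B and MUC13). MUC15 had 0 counts in every library, and MUC4 had 0 counts in the knockout libraries and 2 counts, all in 1 library, in the wild-type group. A filter on low counts left 6 members for the test. Of these, 4 rose (MUC13, MUC1, MUC3A and MUC16) and 1 fell (MUC5B) with a Benjamini-Hochberg adjusted p under 0.05 (edgeR, quasi-likelihood, adjusted over all 18505 genes tested), and MUC5AC did not pass. MUC16 passed the filter through the knockout libraries alone. The background is high in these data: 53.5% of all genes tested passed the same threshold, 27.2% upward and 26.3% downward. The libraries of the groups did not overlap for 5 of the 6 members tested, and for 58.9% of all genes tested. MUC16 is among these 5 and among the 4 that rose. Since the filter kept it through the knockout libraries alone, its lack of overlap and the direction of its call were bound. The other members without overlap were MUC13, MUC1, MUC3A and MUC5B. The median log2 fold change was 0.81 over the 5 members tested that had counts in both groups and 0.00 over all genes. The labels call the libraries of a group biological replicates without saying what was replicated (cultures, passages or clones), so the p-values measure the spread among these 6 libraries.

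**Figure D1:**
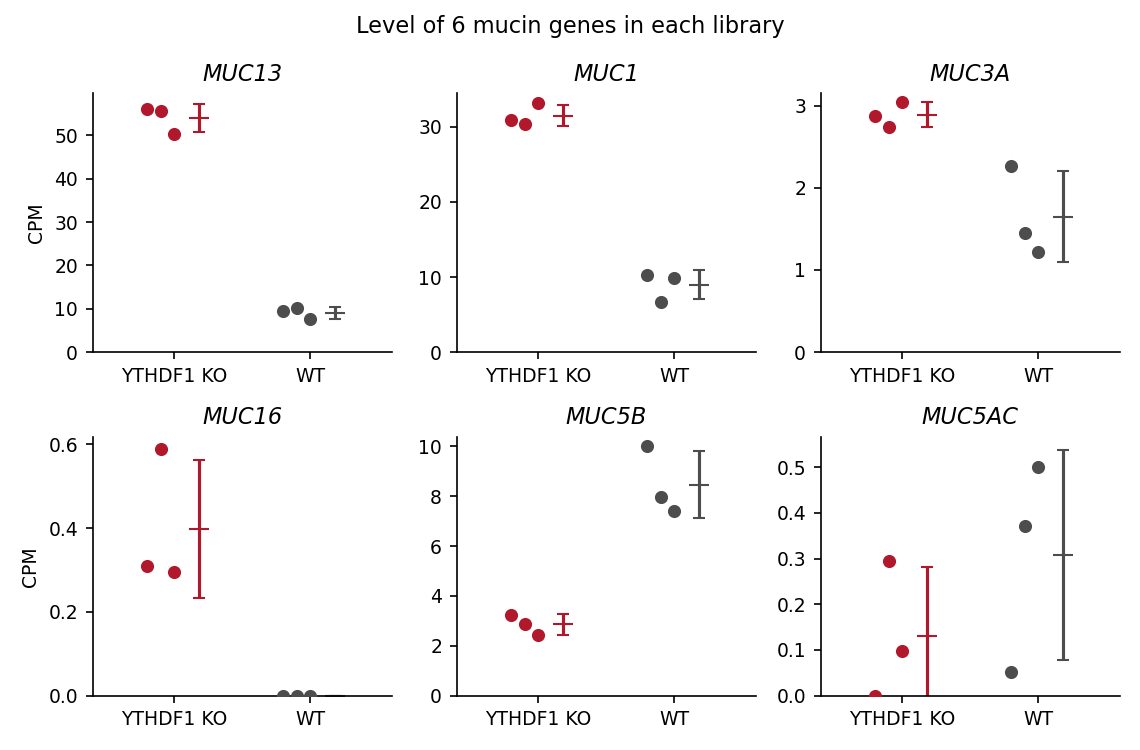
Level in CPM of the 6 mucin genes tested, in 3 YTHDF1 knockout libraries (red) and 3 wild-type libraries (grey), with the mean and SD at the right of each group (the lower bar of MUC5AC is cut at 0). The groups do not overlap for MUC13, MUC1, MUC3A, MUC16 and MUC5B, and they overlap for MUC5AC.

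MUC13 is a small membrane mucin of the intestinal and airway surface with epidermal growth factor-like domains. In GENCODE 29 its gene spans bases 124905442 to 124953819 of chromosome 3, minus strand. MUC13 was at 56.0, 55.6 and 50.3 CPM in the knockout libraries, against 9.50, 10.2 and 7.54 CPM in the wild-type libraries. Every knockout library was well above every wild-type library, and the mean was 5.95-fold higher in the knockout group. MUC13 rose by 2.58 on the log2 scale (SE 0.0875, adjusted p = 1.39e-22 in the edgeR test), the largest change among the members with counts in both groups. Only 7.95% of all genes tested rose by at least 1 on that scale with an adjusted p past the threshold. In bulk RNA a change in the number of cells that express a gene cannot be told apart from a change in RNA per cell.

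MUC1 is the widely expressed membrane mucin whose cytoplasmic tail binds signalling proteins such as beta-catenin and growth factor receptors. Its gene spans bases 155185824 to 155192916 of chromosome 1, minus strand. MUC1 was at 30.9, 30.4 and 33.1 CPM in the knockout libraries, against 10.3, 6.72 and 9.87 CPM in the wild-type libraries. The knockout libraries lay close together and far above the wild-type ones, which were more spread. MUC1 rose by 1.79 (SE 0.104, adjusted p = 3.39e-16 in the same edgeR test), a 3.51-fold difference in means. On the same strand 1.02% of its exonic bases overlap another gene, AL713999.1, which had 0 counts in every library.

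MUC3A, a membrane mucin best known from the intestine, was far less abundant: per kb of exon, the MUC1 level was 26.3-fold that of MUC3A in the knockout libraries. It spans bases 100949555 to 100968346 of chromosome 7, plus strand. MUC3A was at 2.88, 2.74 and 3.05 CPM in the knockout libraries, against 2.27, 1.45 and 1.22 CPM in the wild-type libraries. The groups did not overlap, although the highest wild-type library came near the knockout ones. MUC3A rose by 0.81 (SE 0.244, adjusted p = 0.00566 in the edgeR test), with a 95% interval of 0.31 to 1.30. Against a null of a fold of 1.5 in place of no change, its call was lost (adjusted p = 0.325 in edgeR). Of its exonic bases, 6.5% overlap AC254629.1 on the opposite strand, a gene with 0, 3 and 1 counts in the knockout libraries and 0 counts in the wild-type group.

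MUC16, the giant membrane mucin that carries the CA125 antigen, was detected at a very low level and in the knockout libraries alone. Its gene covers 132499 bases of chromosome 19, 8848844 to 8981342, minus strand. MUC16 had 10, 24 and 12 counts in the knockout libraries, or 0.31, 0.588 and 0.295 CPM, against 0 counts in each wild-type library. With 3 counts taken as the floor for the whole wild-type group, the level was at least 14.1-fold higher in the knockout group, and the adjusted p in the edgeR test was 2.26e-05. Intervals and floors cover counting error only. Because the filter kept MUC16 through the knockout libraries, its call was bound to be a rise if it was called at all.

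MUC20, a membrane mucin that interacts with the hepatocyte growth factor receptor MET, had too few counts to be tested. It had 9, 6 and 6 counts in the knockout libraries, against 3, 0 and 1 counts in the wild-type libraries. Summed over each group the ratio was 4.84, with an exact 95% counting interval of 1.63 to 19.4. With no filter on low counts MUC20 had an adjusted p of 0.185 in the edgeR test. Of its exonic bases, 42.8% lie in MUC20-OT1 on the same strand, which averaged 3.34 ± 0.392 CPM in knockout libraries and 3.04 ± 0.0863 CPM in wild-type libraries, with an adjusted p of 0.57 in the edgeR test. The pseudogene MUC20P1 averaged 0.647 ± 0.197 CPM in knockout libraries and 1.20 ± 0.367 CPM in wild-type libraries. The share of MUC20 counts that belongs to these neighbours was not tested.

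Of the members that are secreted and gel-forming, MUC5B fell and MUC5AC did not pass the test. MUC5B, the main gel-forming mucin of healthy airways, spans bases 1223066 to 1262172 of chromosome 11, plus strand. MUC5B was at 3.25, 2.89 and 2.43 CPM in the knockout libraries, against 10.0, 7.98 and 7.42 CPM in the wild-type libraries. Every knockout library was below every wild-type library, at 0.337 times the wild-type mean. MUC5B fell by 1.57 on the log2 scale (SE 0.161, adjusted p = 4.33e-10 in the edgeR test). The antisense gene MUC5B-AS1, which overlaps 2.33% of its exonic bases, had 0 counts in all 6 libraries.

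MUC5AC, the inducible goblet cell mucin that neighbours MUC5B, was near the limit of detection. It spans bases 1157953 to 1201138 of the same chromosome and strand. MUC5AC had 0, 12 and 4 counts in the knockout libraries, against 2, 10 and 20 counts in the wild-type libraries. The groups overlapped and single libraries differed widely within each group. The log2 fold change was -1.14 with a 95% interval of -2.71 to 0.43 and an adjusted p of 0.223 in the edgeR test, so neither a rise nor a fall was shown. With each library left out in turn the log2 fold change ran from -2.44 to -0.53. The first was without knockout replicate 2, with an adjusted p of 0.0577 in the edgeR test. The last was without wild-type replicate 3, with an adjusted p of 0.699 in the same test.

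**Figure D2:**
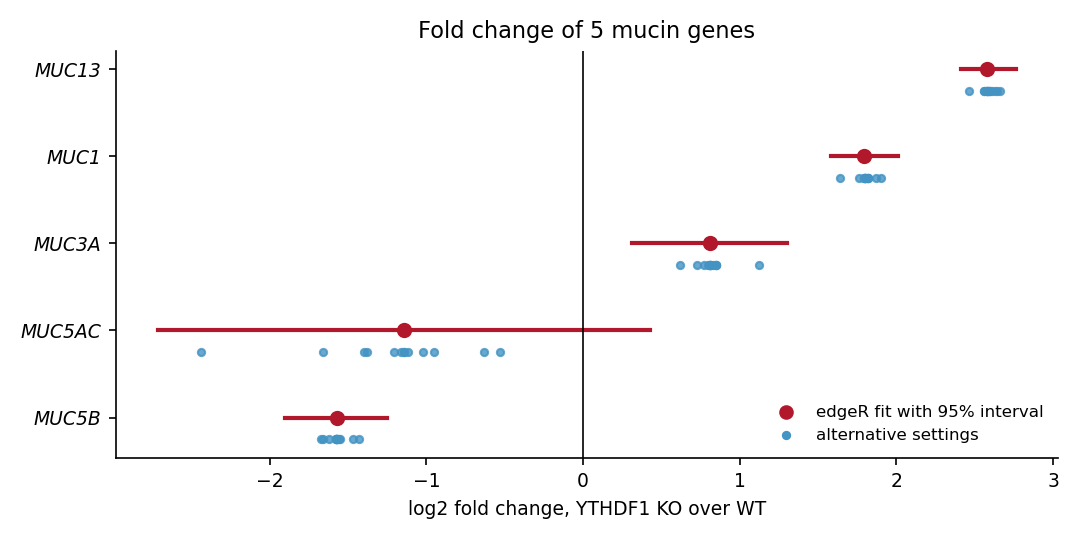
Log2 fold change of knockout over wild type for the 5 mucin genes that were tested and had counts in both groups, from the edgeR fit with its 95% interval (red) and under the alternative settings (blue). MUC13, MUC1 and MUC3A lie above 0, MUC5B lies below 0 between -1.67 and -1.43 under all alternatives run, and the interval of MUC5AC crosses 0.

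Levels can be compared between genes only per length, and the order per kb of exon differed between the groups. In the knockout libraries MUC13 stood first at 15.4 ± 0.899 CPM per kb, followed by MUC1 at 6.67 ± 0.305, MUC3A at 0.254 ± 0.0133, MUC5B at 0.154 ± 0.0221 and MUC20 at 0.045 ± 0.0179 CPM per kb, and none of these neighbours in the order overlapped. MUC16 at 0.00907 and MUC5AC at 0.0075 CPM per kb came next and did not differ beyond their spread. In the wild-type libraries MUC13 at 2.59 ± 0.39 and MUC1 at 1.90 ± 0.414 CPM per kb overlapped. MUC5B at 0.456 ± 0.0737 came next, followed by MUC3A at 0.145 ± 0.0484 CPM per kb, without overlap. MUC5AC at 0.0176 CPM per kb overlapped the next gene, MUC20, at 0.00817 CPM per kb. These are RNA levels per length of merged exons in GENCODE 29, which may differ from the exons the authors counted. Exon lengths were not corrected for repeats within a gene. The share of repeated 50-base windows was 42.4% for MUC1 and 29.2% for MUC5B, against 1.86% for MUC3A and 0% for MUC13. For MUC20 it was 22.8%, and 42.8% of its exonic bases lie in MUC20-OT1. What these shares do to the order was not tested.

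**Figure D3:**
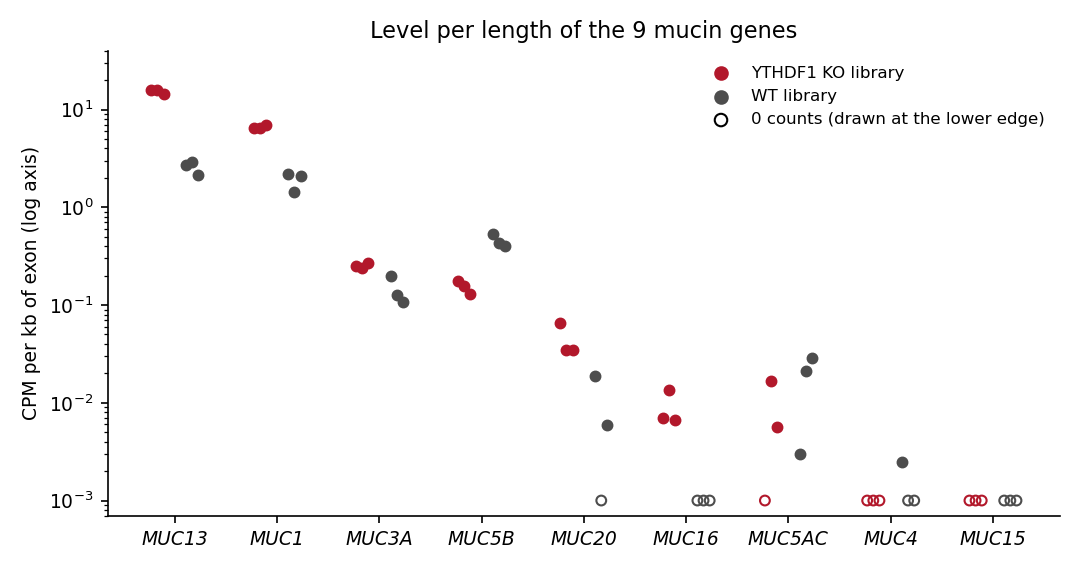
CPM per kb of exon, on a log axis, for the 9 mucin genes in each knockout library (red) and wild-type library (grey), ordered by the knockout mean, with hollow points at the lower edge for 0 counts. MUC5B stands above MUC3A in the wild-type libraries and below it in the knockout libraries, and MUC15 is at 0 throughout.

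The makeup of mucin counts shifted with these changes. Summed over the 9 genes the level was 93.5, 92.7 and 89.5 CPM in the knockout libraries, against 32.3, 26.7 and 26.6 CPM in the wild-type libraries. MUC13 gave 56.3% to 60.0% of the mucin counts in knockout libraries and 28.4% to 38.1% in wild-type libraries. The share of MUC1 overlapped between the groups, at 32.8% to 37.0% in knockout libraries and 25.2% to 37.1% in wild-type libraries. MUC5B gave 2.72% to 3.48% in knockout libraries and 27.9% to 31.1% in wild-type libraries. The ratio of MUC13 to MUC1 in CPM was 1.81, 1.83 and 1.52 in knockout libraries, against 0.923, 1.51 and 0.765 in wild-type libraries, so the lowest knockout and the highest wild-type ratio nearly met.

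YTHDF1 recognises N6-methyladenosine, which is commonly placed within GGACU, so the letters GGACT were counted in the longest coding transcript of each gene. This count was chosen after the fold changes were known. MUC5B held 40 matches, or 2.23 per kb, and MUC16 held 53, or 1.21 per kb. The others held fewer per kb: 0.745 in MUC5AC, 0.695 in MUC13, 0.584 in MUC4, 0.534 in MUC3A, 0.48 in MUC1, 0.406 in MUC20 and 0 in MUC15. Over 19684 coding genes the median was 0.942 per kb, and the middle of the distribution, from the lower to the upper quartile, ran from 0.53 to 1.44. The letters do not show where the base is methylated, and methylation was not measured here.

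MUC13 was the most abundant member, and the genes whose level over the 6 libraries was most like it were HES4, ZNF134 and PGAP6, out of 11245 genes averaging 5 CPM or more. The correlation of log2 levels was 0.9998 for HES4, which was at 37.2 ± 2.77 CPM in knockout libraries and 5.54 ± 0.905 CPM in wild-type libraries. It was 0.9995 for ZNF134 and 0.9994 for PGAP6. The libraries fall into 2 groups, so a high correlation mostly reflects the difference between them: 18.6% of the genes compared reached 0.95 or more.

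Other mucins and mucin-like genes showed no common direction. Of 20 listed, 19 were matched and 8 were tested, of which 3 rose and 2 fell (62.5% called, beside 53.5% of all genes tested). The median log2 fold change was 0.05. MUC2, the gel-forming mucin of the intestine, had 20, 18 and 14 counts in the knockout libraries, against 4, 0 and 7 counts in the wild-type libraries, and rose by 2.15 (adjusted p = 0.0077 in the edgeR test). CD164, the small sialomucin endolyn, rose by 0.31, the stem cell sialomucin CD34 rose by 2.36 at under 1 CPM, and the podocalyxin gene PODXL fell by 0.34. MUC2 and CD34 passed the filter on low counts through the knockout libraries alone, so that any call of them was bound to be a rise. CD164 and PODXL kept their calls with any 1 library left out. MUC2 lost its call without knockout replicate 1 or wild-type replicate 2. CD34 lost its call without knockout replicate 2, wild-type replicate 1 or wild-type replicate 2, and without the last of these 1 rise was left in the list. Leaving out knockout replicate 2, knockout replicate 3 or wild-type replicate 1 ended the call of OVGP1, the oviductal glycoprotein gene, which had fallen by 0.97 and is named for this, and left 1 fall.

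Several further members of this list were named after their values were seen. MUC12, a membrane mucin 1.28 kb downstream of MUC3A, was at 1.02, 1.13 and 1.40 CPM in the knockout libraries, against 1.00, 0.928 and 1.60 CPM in the wild-type libraries, with a 95% interval of -0.65 to 0.65 around a log2 fold change of 0.00. MUC17, the next membrane mucin of that cluster, had 4, 43 and 2 counts in the knockout libraries and 0 counts in each wild-type library. Knockout replicate 2 alone held most of them. The level was at least 15.1-fold higher in the knockout group with the wild-type group at a floor of 3 counts, but at least 2.87-fold higher without knockout replicate 2, and MUC17 was under the filter and not tested. MUC6, MUC7, MUC21, MUC22, MUCL1 and MUCL3 had 0 counts in all libraries.

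The enzymes that build mucin O-glycans changed in both directions. Of 30 listed genes 24 were tested, and 6 rose and 10 fell, with a median log2 fold change of -0.08. That is 66.7% called, beside 53.5% of all genes tested. GCNT4, which adds a branching N-acetylglucosamine to the core, was at 14.7, 14.2 and 17.4 CPM in the knockout libraries, against 1.45, 0.965 and 1.05 CPM in the wild-type libraries. GCNT4 rose by 3.72 (SE 0.16, adjusted p = 1.1e-19 in the edgeR test). GALNT12, which adds the first N-acetylgalactosamine to serine or threonine, was at 33.1, 33.4 and 33.2 CPM in the knockout libraries, against 10.4, 10.0 and 11.9 CPM in the wild-type libraries. GALNT12 rose by 1.62. The galactosyltransferase gene B4GALT5 rose by 0.70. The related gene GALNT7 fell by 0.76 to 61.8, 66.0 and 70.0 CPM in the knockout libraries, against 113, 111 and 112 CPM in the wild-type libraries. Chosen after their values were seen, the other GALNT genes that fell were GALNT1, GALNT2, GALNT6, GALNT10, GALNT11, GALNT13, GALNT16 and GALNT18, by 0.20 to 1.42 on the log2 scale. GALNT12 was the 1 GALNT gene of this list that rose. The fall of GALNT18 lost its call without knockout replicate 3 or wild-type replicate 1. C1GALT1, which makes the core structure that most mucin O-glycans extend, did not pass, with a log2 fold change of -0.06 (adjusted p = 0.348 in the edgeR test).

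Factors known to act on mucin genes changed in both directions. Of 30 listed genes 29 were tested, and 17 rose and 8 fell, beside 27.2% and 26.3% of all genes tested, with a median log2 fold change of 0.32. KLF4, an epithelial zinc finger factor, was at 22.1, 24.4 and 20.8 CPM in the knockout libraries, against 5.33, 4.49 and 5.77 CPM in the wild-type libraries. KLF4 rose by 2.10. STAT3 rose by 0.88 and the NF-kB subunit gene RELA rose by 0.77.

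Genes of this list that fell included SPDEF, FOXA2, FOXA3, SOX2, CREB3L1, NOTCH2 and HES1, all chosen after their values were seen. They are not the direction of the list, in which 17 rose and 8 fell. Among those that rose, also chosen after their values were seen, were GATA6 by 1.16, ELF3 by 0.77, EHF by 0.65, FOXA1 by 0.33 and XBP1 by 0.25. SOX2 lost its call without knockout replicate 1, knockout replicate 2 or wild-type replicate 3. SPDEF, the factor that drives goblet cell differentiation, was at 0.0619, 0.294 and 0.0983 CPM in the knockout libraries, against 1.37, 1.71 and 1.37 CPM in the wild-type libraries. SPDEF fell by 3.21 (SE 0.489, adjusted p = 1.1e-06 in the edgeR test). All knockout libraries were below all wild-type libraries, at a low level in both groups. The filter asked for 0.255 CPM in 3 libraries, which 1 knockout library and all 3 wild-type libraries reached, so SPDEF was kept through the wild-type libraries, where it was high. FOXA3, which is linked to mucus production in mouse airways, fell by 1.12, and CREB3L1, a regulator of secretory capacity, fell by 0.81.

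Most goblet and airway secretory cell genes had too few counts to be tested. Of 29 listed genes 13 had 0 counts in all libraries, among them BPIFA1, SCGB3A2 and CLCA1. Only 6 were tested, of which 3 rose and 2 fell (83.3% called, beside 53.5% of all genes tested). AGR2, an endoplasmic reticulum disulfide isomerase needed for mucin folding, was at 10.3, 12.7 and 11.6 CPM in the knockout libraries, against 26.6, 26.0 and 22.6 CPM in the wild-type libraries. AGR2 fell by 1.11 (SE 0.0939, adjusted p = 4.87e-12 in the edgeR test). FCGBP, a mucus-associated protein chosen after its values were seen, fell by 0.96 at about 1 CPM. The protease inhibitor gene SLPI rose by 1.89 and CEACAM6, a surface glycoprotein, rose by 0.75, and the third gene that rose was GALNT12, which is on both lists. CEACAM6 lost its call without knockout replicate 3 or wild-type replicate 2. The fall of FCGBP lost its call without knockout replicate 2, wild-type replicate 1 or wild-type replicate 3, leaving 1 fall. Without wild-type replicate 1 there were 5 rises, since TFF1 and ANO1 were then called too.

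Partners and sheddases of membrane mucins changed mostly by small amounts. Of 25 listed genes 24 were tested, and 13 rose and 6 fell, with a median log2 fold change of 0.23. Called genes made up 79.2% of these, beside 53.5% of all genes tested. ICAM1, an adhesion molecule that binds MUC1, was at 17.6, 18.7 and 18.1 CPM in the knockout libraries, against 3.03, 2 and 2.6 CPM in the wild-type libraries. ICAM1 rose by 2.81. The receptor gene MET rose by 0.42 and the kinase gene SRC, whose product phosphorylates the MUC1 tail, rose by 0.38. The metalloprotease gene ADAM9 fell by 0.61. ADAM17 and MSLN were chosen after their values were seen: ADAM17, a protease that releases the MUC1 ectodomain, fell by 0.21, while MSLN, which encodes the MUC16 ligand mesothelin, rose by 0.72.

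Genes next to the mucin loci did not share the members' direction as a group. The list holds the 2 nearest protein-coding genes on each side of each locus that are not members. Nearest does not always mean close: LUZP2 lies 1476402 bases from MUC15. Of 28 genes 17 were tested, with 7 higher and 5 lower and a median log2 fold change of 0.09. MUC2, MUC6, MUC12 and MUC17 are also on the list of other mucins. MUC2 is among the rises and could only have been called as a rise. With each library left out in turn there were 5 to 7 rises and 4 to 5 falls. This made 70.6% called, beside 53.5% of all genes tested. On 1 side of MUC13, HEG1, itself a mucin-like membrane protein, lies 11.9 kb away and rose by 1.43. On the other side ITGB5, an integrin subunit gene 4.02 kb away, fell by 0.25. Next to MUC1, TRIM46 at 0.853 kb and THBS3 at 2.67 kb did not pass the test, with adjusted p of 0.345 and 0.242 in the edgeR test. TOLLIP, 12.2 kb from MUC5B, rose by 0.32 while MUC5B fell. ITGB5, TRIM46, THBS3 and TOLLIP are named for their position. The other genes named by rule were TFRC, ACHE and ZNF558. TFRC lies 215 kb from MUC4 and fell by 0.84. ACHE lies 52.6 kb from MUC3A and rose by 2.85, and ZNF558 lies 16.5 kb from MUC16 and rose by 0.66.

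**Figure D4:**
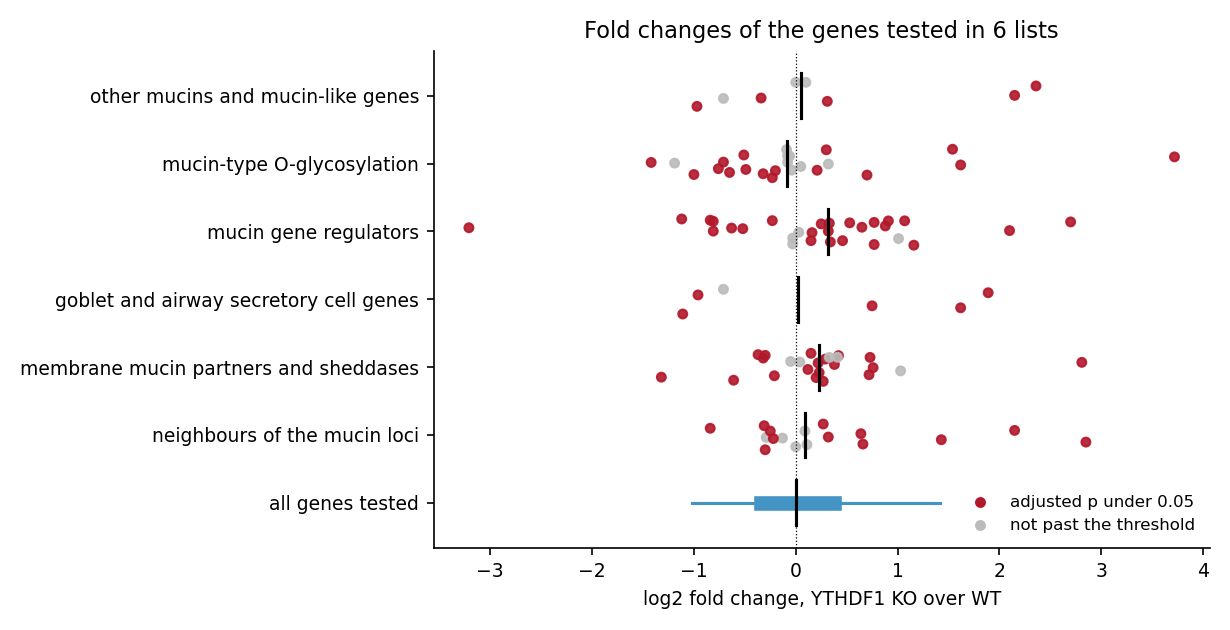
Log2 fold change of knockout over wild type for the genes tested in the 6 lists, red where the adjusted p passed the threshold and grey where it did not, with the list median as a black bar. The bottom row gives all genes tested, with the thick bar over the quartiles and the thin line over the 5th to the 95th percentile, which runs from -1.02 to 1.42.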

How the data were processed

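RNA from 6 A549 libraries, 3 YTHDF1 knockout and 3 wild type, was prepared with a TruSeq stranded kit, per the labels' protocols. The authors deposited raw counts per Ensembl gene, with 1 column per library. Trim Galore 0.6.6, STAR 2.7.0d, featureCounts 2.0.1, edgeR 3.32.1 and the build GRCh38 are named, per the submitters' processing notes; the sources used here do not give the annotation, the strand setting or the handling of multi-mapping reads.

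From these counts, edgeR 4.0.16 (R 4.3.3) was run with filterByExpr (minimum count 10), TMM factors and the quasi-likelihood test with genotype as the only term, two-sided, with Benjamini-Hochberg adjustment over 18505 genes and a threshold of 0.05. Standard errors come from the fold change and its F statistic. Symbols were matched through a symbol table, and positions and exons come from GENCODE 29 on GRCh38, which may differ from the authors' annotation. Sequence windows of 50 bases were compared between GENCODE transcripts on both strands.

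The members, the gene lists and the tests were chosen with earlier results of these data known. Named genes were the members, the up to 4 genes of each list with the smallest adjusted p past the threshold, and the 3 most like the most abundant member; others are marked, and some genes of the regulator list are not reported here. MUC3B was not matched. Alternatives were DESeq2 1.42.0, limma-voom (limma 3.58.1), RLE factors, library size only, no filter, 1 CPM in 3 libraries, a replicate block, a fold of 1.5 in the test, and each library left out. Tested on simulated data for the same comparison (18134 genes), the edgeR fit found 85.1%, 92.5% and 100% of genes changed by 1.5-fold, 2-fold and 4-fold, with 17 of 202 calls false. The changed genes, 67, 67 and 66 by size, were drawn only from genes averaging above 1 CPM. These rates therefore do not cover genes averaging less, among them MUC16, MUC5AC, MUC2, CD34, SPDEF, FOXA3, FCGBP and PDGFRB. Far more genes were called in the real data. Libraries of a group differed by more than sampling noise (chi-square divided by its degrees of freedom, 4.4 to 6.55), so all 6 were kept.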

Additional observations from a re-analysis of the deposited data

How the results depend on the processing

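MUC1, MUC5B and MUC13 kept their direction and their call under every alternative, and MUC3A kept its direction. MUC16 kept its call wherever it was tested. With 0 counts in each wild-type library its direction could not have changed. MUC1 ranged from 1.64 to 1.90 on the log2 scale, MUC13 from 2.46 to 2.66, MUC3A from 0.62 to 1.12 and MUC5B from -1.67 to -1.43. MUC5AC ranged from -2.44 to -0.53 and was called under no alternative, with adjusted p from 0.0577 to 0.699, both in edgeR. MUC3A lost its call when a fold of 1.5 was built into the edgeR test, at an unchanged 0.81 and an adjusted p of 0.325, which follows from the stricter null; under the other alternatives its adjusted p reached at most 0.0452, without wild-type replicate 3. A filter of 1 CPM in 3 libraries removed MUC16 and MUC5AC, which left 3 rises, as did the loss of MUC3A under the fold test. For single members that test was added after seeing the data. It called 1573 genes higher and 1012 lower, against 5028 and 4865 without it. With library size only the split was 5314 higher and 4578 lower. Leaving out each library gave 1 to 3 rises and 1 to 2 falls among other mucins, and 3 to 5 rises and 1 to 2 falls among goblet and secretory genes; the cause was not tested. The bound for MUC17 without knockout replicate 2 was chosen after seeing the data, at 2.87. Same-numbered libraries did not deviate together (correlations of -0.05, -0.01 and 0.06), against -0.08 to 0.08 for libraries with different numbers. No pairing was visible, but the labels do not say whether same-numbered libraries were prepared together. With the replicate block 4937 genes were higher and 4766 lower, and 4 members rose and 1 fell. Counts of at most 20 reads in any library limit MUC4, MUC5AC, MUC15 and MUC20.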
